A study of Labrus bergylta with 24 samples.

Results

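Of the transcripts measured in the hindgut of Labrus bergylta, the ballan wrasse, a marine fish with no stomach that is kept as a cleaner fish, 150 were singled out because fish given a prebiotic alone lay apart from fish on the other 3 diets. In 75 of them the prebiotic fish were highest and in 75 they were lowest, out of 12463 transcripts with a mean of at least 50 normalized counts and 20751 in the table. They were chosen on all 24 libraries. For each transcript the 4 diet medians of log2(normalized count + 1) were sorted, and the transcript was kept if the widest gap between neighbouring medians lay between the prebiotic fish and the next diet. The score was that gap divided by the pooled SD within diets (20 degrees of freedom), and the 75 highest scores were taken in each direction. Every difference between prebiotic fish and the others in these transcripts is therefore a description. Counts of members called by a fit over all transcripts are given further on for completeness, and nothing is read from them.

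RNA sequencing was performed on the distal intestine of 24 fish, 6 per diet. Every fish first ate an unsupplemented diet during 4 weeks of acclimatization. During the next 5 weeks the control fish (Control) stayed on it, while the others received it with 0.4% of the commercial prebiotic Aquate SG (Control+Prebio), with 0.7% soyasaponin (Control+Saponin) or with both (Control+Saponi+Prebiotic); these groups are called prebiotic, soyasaponin and combined. There were 2 tanks per diet. Which tank a fish came from is not in the labels, so effects of tank and of diet cannot be told apart, and each p-value counts the fish as independent samples. The design asks how each addition acts alone and together, and the transcripts described here are those in which the prebiotic diet, but not the combined diet that also held prebiotic, was set apart.

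The hindgut of fish takes up nutrients, in part as whole macromolecules, and is also a site of mucosal immunity in contact with gut microbes. Prebiotics are feed ingredients meant to act by favouring certain microbes. Soyasaponins are amphipathic triterpenoid glycosides of soybean and are known in salmonids for a part in soybean-induced inflammation of the distal intestine. The transcripts carry identifiers with no gene names, and 0 of 20751 identifiers matched the RefSeq gene table used here. Their roles therefore cannot be given, and neither markers of the labelled tissue nor markers of other cell types could be looked up. In bulk tissue, fewer cells of a type and less RNA per cell cannot be told apart. Identifiers are printed for the 2 transcripts with the highest score in each direction, and other members are named by their rank in score.

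Recovered reads per library ran from 8.42 to 12.5 M. Prebiotic fish had 9.31 ± 0.754 M and the 18 other fish 9.71 ± 1.07 M (mean ± SD, n = 6 and 18, exact two-sided permutation p = 0.417). No member was at 0 reads in any fish, and the lowest value of any member was 14 reads.

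LABE_00039038-RA had the highest score, 3.22. Its normalized count was 955 to 1160 in prebiotic fish (median 1066), 597 to 906 in control (median 688), 526 to 753 in soyasaponin (median 685) and 496 to 726 in combined fish (median 561). All 6 prebiotic fish lay above all 18 others, and the widest gap, taken from medians of log2 values, was 0.63, or 1.55-fold. LABE_00000649-RA followed with a score of 3.08. It held 586 to 1000.2 in prebiotic fish (median 822), 432 to 672 in control (median 464), 378 to 712 in soyasaponin (median 443) and 334 to 510.0 in combined fish (median 432). Here prebiotic replicate 3, at 586, fell among the other diets, below control replicate 4 (672) and soyasaponin replicate 2 (712), while the other 5 prebiotic fish stood above every other fish.

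The next 2 ranks showed the same layout. The higher member at rank 3 had diet medians of 393 in prebiotic, 228 in control fish, 234 on soyasaponin and 222 on the combined diet, and its overlap came from a single control fish, replicate 4 (382 against a prebiotic range of 315 to 440). The one at rank 4 had medians of 252, 159, 162 and 159 in the same order, and there prebiotic replicate 3 (178) lay among the other diets while the other 5 prebiotic fish lay above all of them. At ranks 2 to 4 the medians of the other 3 diets lay close together, while at rank 1 the combined median (561) lay below those of control (688) and soyasaponin (685). The overlaps came from prebiotic replicate 3 (ranks 2 and 4) and control replicate 4 (rank 3).

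LABE_00010294-RA led the lower members with a score of 2.75. Its normalized count was 311 to 442 in prebiotic fish (median 358), 433 to 581 in control (median 479.5), 511 to 595 in soyasaponin (median 538) and 442 to 601 in combined fish (median 489). Prebiotic replicate 1 (442) lay above control replicate 4 (433), and no other pair of fish crossed between prebiotic and another diet. LABE_00040200-RA, with a score of 2.55, held 183 to 275 in prebiotic fish (median 195), 187 to 367 in control (median 295), 227 to 339 in soyasaponin (median 296) and 327 to 416 in combined fish (median 370.2). Control replicates 4 (187) and 6 (251) and soyasaponin replicate 6 (227) lay within the prebiotic range, whose upper end was prebiotic replicate 6 (275), and all combined fish stood above it. The lower members at ranks 3 and 4 had prebiotic medians of 183 and 89.2, against 259 to 274 and 119 to 128 over the other 3 diets.

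**Figure D1:**
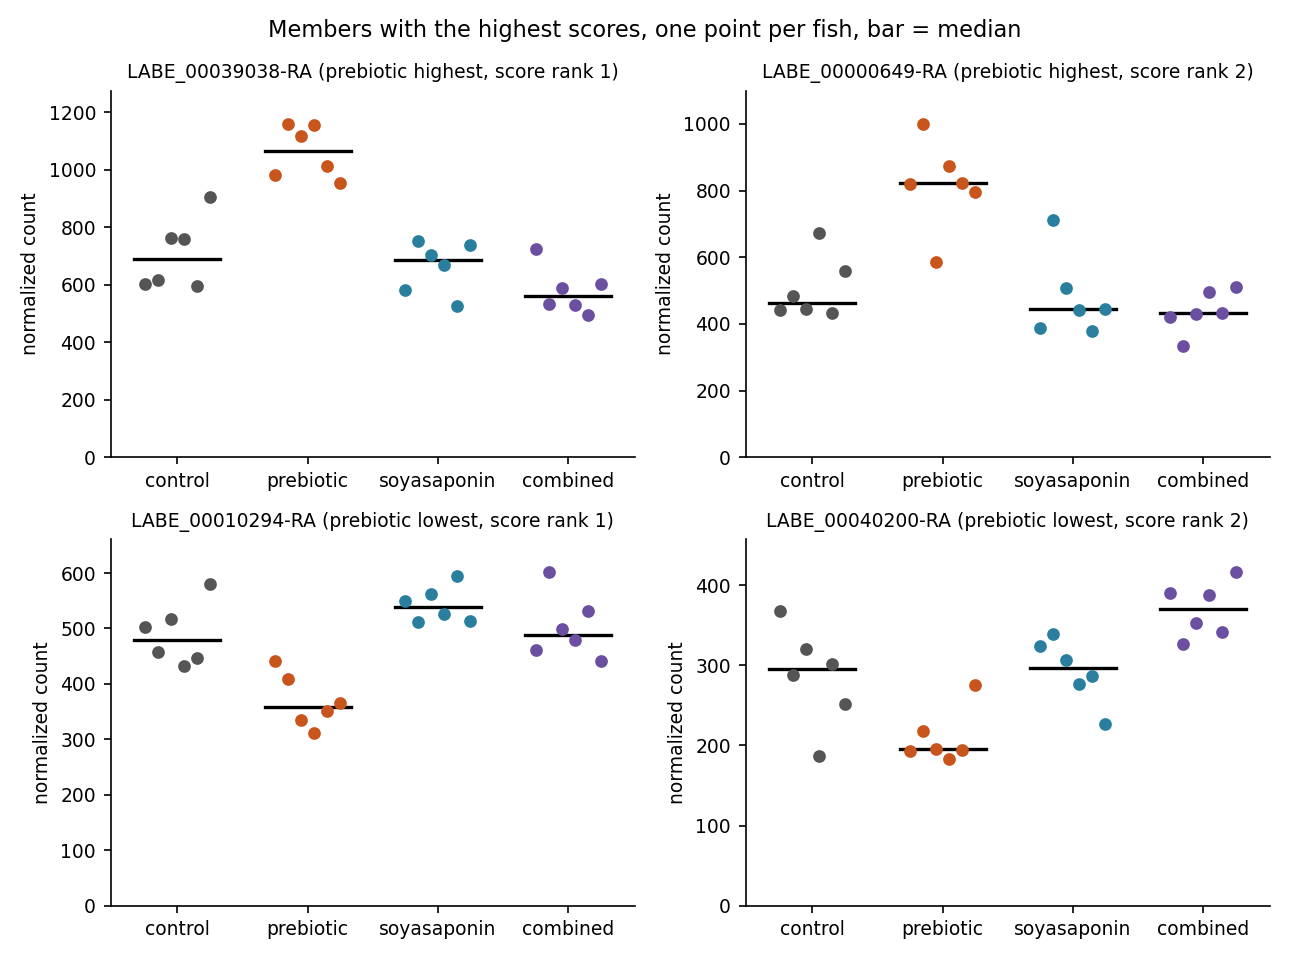
Normalized count (vertical axis, starting at 0) of the 2 transcripts with the highest score in each direction, one point per fish and a bar at the diet median (6 fish per diet). LABE_00039038-RA is the one of the 4 in which no prebiotic fish overlaps another diet; in the other 3 at least 1 fish crosses.

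The steps between diets were modest in most members. The gap had a median of 0.53 (quartiles 0.39 and 0.73, range 0.21 to 1.88, log2) over the higher members and 0.41 (quartiles 0.33 and 0.51, range 0.19 to 1.71) over the lower ones. It reached at least 1, a doubling on this scale, in 11 higher members and in 1 lower member. A transcript could rank high through a small spread as well as through a wide gap: the pooled SD had a median of 0.26 over the higher and 0.21 over the lower members, against 0.29 over all 12463 transcripts. The last transcripts taken and the first left out hardly differed in score, with 1.695 at rank 75 and 1.690 at rank 76 for the higher members and 1.656 and 1.655 for the lower ones.

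The members with the widest gap, chosen for description after their values were seen, show what lies behind a large step. The higher member at rank 9 had a gap of 1.88. Its normalized count was 72.4 to 252 in prebiotic fish (median 169.9, with 72.4 and 73.5 in replicates 4 and 5), 12.5 to 118 in control (median 37.2), 20.5 to 76.1 in soyasaponin (median 45.3) and 35.2 to 79.6 in combined fish (median 45.5). Prebiotic replicates 4 and 5 lay within the range of the other diets. The lower member at rank 17 had a gap of 1.71, with 16.6 to 33.6 in prebiotic replicates 1, 3, 4 and 5 but 163 and 118 in replicates 2 and 6, against a median of 88.1 in control fish, 118 on soyasaponin and 107 on the combined diet. So its gap rested on 4 of 6 prebiotic fish, and the remaining ones lay within the range of the other diets.

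Complete separation of the 6 prebiotic fish from all 18 others was rare. It occurred in 4 of the 75 higher members (0.0401% of the 12463 transcripts did so in that direction) and in 2 of the 75 lower ones (background 0.016%), and the choice of members used these same values. The separated higher members were at ranks 1, 13, 23 and 37, and at rank 37 the separation was by less than 1 normalized count (1945.3 against 1945.1). The one at rank 23 was abundant, with 11356 to 13622 normalized counts in prebiotic fish and at most 11190 in control fish, 10242 on soyasaponin and 9896 on the combined diet. The separated lower members were at ranks 12 and 52, and that at rank 52 held 22.4 to 50.6 in prebiotic fish and at least 56.7 in every other fish. Relaxing this to the middle of the gap, all 6 prebiotic fish lay on their own side of it in 12 higher and 14 lower members, 5 of 6 in 35 and 36, and 4 of 6 in 28 and 25. The middle of the gap was set with the prebiotic median itself, so these counts were largely fixed by the choice of members. No share over all transcripts is given beside them, and nothing is read from them.

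The higher members included the most abundant transcript of the table, at rank 29. It held 386712 to 666123 normalized counts in prebiotic fish (median 599900.0), 114535 to 567059 in control (median 291720.0), 199604 to 379901 in soyasaponin (median 285754) and 225960.1 to 377636 in combined fish (median 306625). That came to 3.72 to 6.30% of all normalized counts in prebiotic fish, and to 1.35 to 5.94% in the others. Control replicate 4, at 5.94%, lay above 3 of the 6 prebiotic fish, and without that fish the other diets ended at 3.89%. A further 4 higher members, at ranks 22, 30, 36 and 73, had a mean of at least 10000, with prebiotic medians of 15593, 24584, 13463 and 89967 against 9779 to 11210.3, 15255 to 16435, 8934 to 10677 and 49945 to 58518 over the other diets. None of the lower members was that abundant, and their most abundant, at rank 44, held 2079 to 2647 in prebiotic fish, 2580 to 3646 in control fish, 2727 to 3411 on soyasaponin and 2748 to 3415 on the combined diet.

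The rule set a minimum mean, and its score divides by a pooled SD that can itself vary with abundance. The shares below are therefore not independent of the rule. The median of the mean level was 559 over the higher and 278 over the lower members, against 238 over all 12463 transcripts. In the top tercile of abundance, above 412, lay 45 of the 75 higher members (60%) and 23 of the 75 lower ones (30.7%). Among the sets drawn by the same rule for the other diets, the share in the top tercile ran from 17.3% (control highest) to 76% (control lowest). A mean of at least 10000 was reached by 5 members with prebiotic highest and by at most 1 in each of the other 7 sets, against 0.706% of all transcripts.

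Over each set as a whole, every prebiotic fish lay beyond every other fish. For each fish the median over the members was taken of its log2 level minus the median of the 18 other fish. Over the higher members this level was 0.46 to 0.69 in prebiotic fish, -0.16 to 0.28 in control fish, -0.14 to 0.21 on soyasaponin and -0.18 to 0.07 on the combined diet. Over the lower members it was -0.59 to -0.28, -0.23 to 0.18, -0.09 to 0.14 and -0.01 to 0.06 in the same order. The choice of members fixes the place of the prebiotic diet at the extreme. It did not directly set which other fish leaned the same way, though every fish entered the medians and the pooled SD. Control replicate 4 was the nearest to the prebiotic fish in both sets (0.28 and -0.23), followed by soyasaponin replicate 2 (0.21 and -0.09). On the opposite side lay combined replicate 2 (-0.18 and 0.06), control replicate 5 (-0.16 and 0.18) and soyasaponin replicate 1 (-0.14 and 0.14). The levels of both sets were related over these 18 fish (r = -0.85, given below), so their agreement in a fish is not independent.

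**Figure D2:**
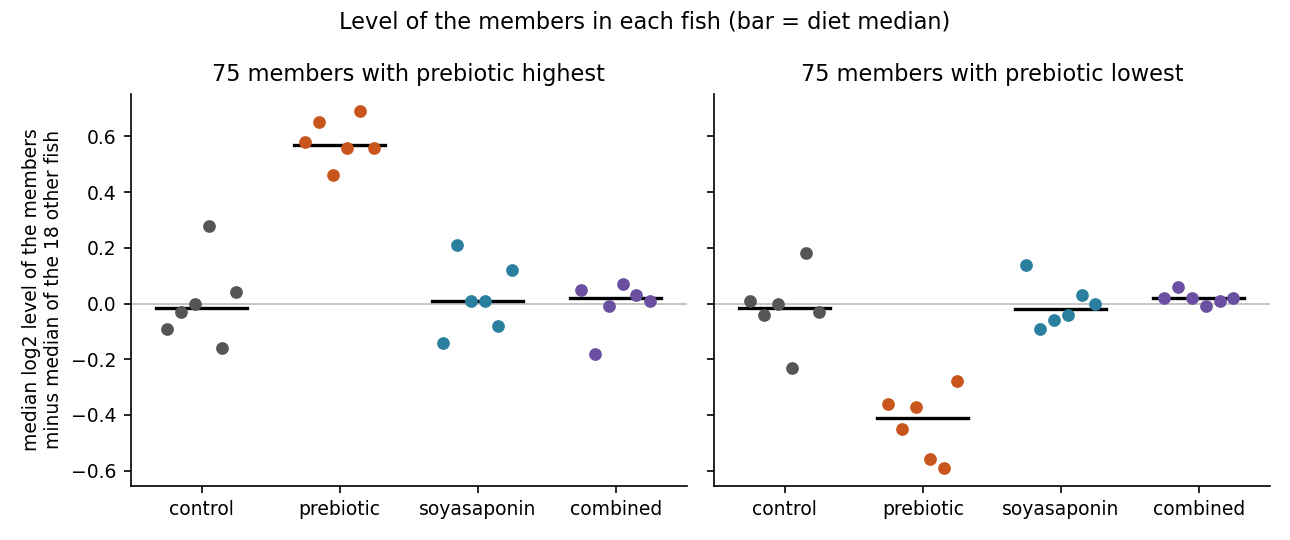
Median over the 75 higher members (left) and the 75 lower members (right) of the log2 level of each fish minus the median of the 18 other fish, one point per fish and a bar at the diet median. Prebiotic fish lie at 0.46 to 0.69 and -0.59 to -0.28 because the members were chosen for it, and control replicate 4 (0.28 and -0.23) lies nearest to them.

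The choice was then repeated with each fish left out in turn. The left-out fish had no part in the medians and scores, though it did in the scaling and the minimum mean. It was scored by the share of the 75 newly chosen transcripts that lay on the prebiotic side of the middle of the gap. For the higher direction this share had a median of 32.6% over the 6 prebiotic fish (8.0 to 66.7%), against 14.7% over the 18 other fish (5.3 to 60.0%). For the lower direction it was 46.7% (18.7 to 77.3%) against 14.0% (4.0 to 61.3%). With reads scaled to the library total, a scaling tried after the data were seen, the median in the higher direction was 20.0% in prebiotic and 20.0% in the other fish, while the lower direction gave 56.0% against 11.4%. Prebiotic replicates 2, 4 and 5 had the highest shares of their diet in both directions, at 66.7%, 44.0% and 64.0% for the higher set and 54.7%, 77.3% and 74.7% for the lower. Prebiotic replicates 1, 3 and 6 fell to 21.3%, 8.0% and 12% in the higher set and to 38.7%, 34.7% and 18.7% in the lower.

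Prebiotic fish that had taken part in the choice gave far higher shares, 70.7 to 96.0% in the higher and 65.3 to 98.7% in the lower direction. The 18 other fish, when they took part, gave 0.0 to 46.7% and 0.0 to 44.0%. The drop on leaving a fish out was found in all 6 prebiotic fish and both directions. The 18 other fish, by contrast, all had a higher share when left out, in both directions. Among them the left-out control replicate 4 reached 60.0% and 61.3%, above 4 of the 6 left-out prebiotic fish in each direction. Over all transcripts in which the prebiotic diet was set apart, whatever their score, the left-out prebiotic fish had a median share of 41.2% in the higher and 44.8% in the lower direction, and the 18 others 23.8% and 27.0%. The highest-scoring transcripts thus gave left-out prebiotic fish a share no higher than that of all candidates in the higher direction (32.6% against 41.2%) and about the same in the lower direction (46.7% against 44.8%), while they gave the fish of other diets a lower one. These are shares of transcripts in single fish, the transcripts are not independent of each other, and no p-value is given.

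**Figure D3:**
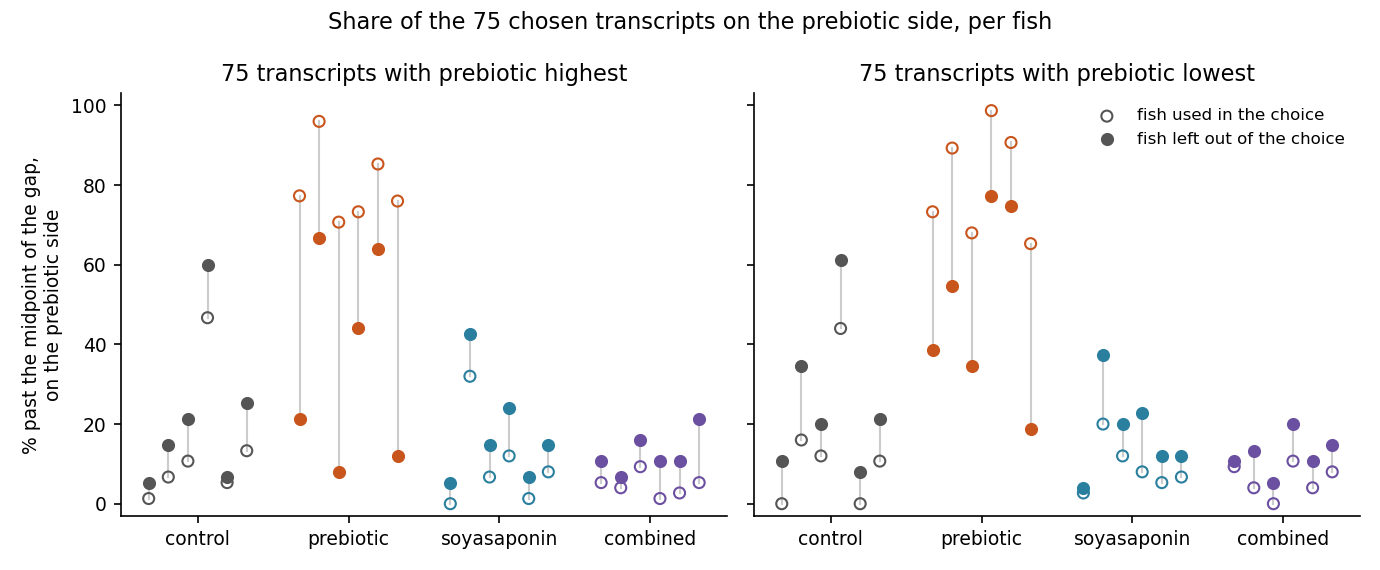
Share (%) of the 75 chosen transcripts on the prebiotic side of the middle of the gap, for prebiotic highest (left) and lowest (right), one column of points per fish in the order of replicates 1 to 6. Open points are fish that took part in the choice and filled points the same fish when left out of it; all 6 prebiotic fish drop, to 8.0 to 66.7% on the left and 18.7 to 77.3% on the right, and control replicate 4 stands at 60.0% and 61.3%.

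Membership depended on the prebiotic fish. Leaving out 1 prebiotic fish kept 23 to 49 of the 75 higher members, with 23 without replicate 6 and 30 without replicate 1 or 3, and kept 45 to 54 of the 75 lower ones. Leaving out 1 fish of another diet kept 59 to 68 and 56 to 68. In all 24 omissions 9 higher and 13 lower members were chosen again, among them the higher members at ranks 1 to 4 and the lower members at ranks 1 to 3. Without prebiotic replicates 4 and 5 together, 38 higher and 39 lower members remained.

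A fit of all 4 diets (limma on log2(normalized count + 1), 17056 transcripts with a mean of at least 10, Benjamini-Hochberg adjusted p under 0.05) set prebiotic fish against the mean of the other 3 diets. It called 66 of the 75 higher members (background 1.61% of all transcripts, higher) and 67 of the 75 lower members (background 2.19%, lower; 3.8% in either direction). The rule used this contrast. Without prebiotic replicate 5 they were 32 and 22, without replicate 4 they were 41 and 21, without replicate 2 they were 38 and 35, and without replicates 4 and 5 together 8 and 1. Against each diet singly, the higher members called were 37 for control (background 0.92%), 7 for soyasaponin (background 0.0938%) and 40 for combined fish (background 1.08%). The lower members called were 24 (background 0.897%), 3 (background 0.129%) and 47 (background 2.73%). In either direction the backgrounds were 1.82%, 0.223% and 3.81%. The rule used the prebiotic fish and each of these diets, and the comparisons share the prebiotic fish, so these counts too were shaped by the choice of members and show nothing beyond it.

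Over all 17056 transcripts the contrast with the mean of the other diets called 648, with 275 higher and 373 lower, and that count moved with single fish and with scaling. Omitting prebiotic replicate 2, 4 or 5 left 207, 139 or 95 calls, and omitting replicates 4 and 5 at once left 17. Omitting prebiotic replicate 6 gave 1196, and omitting soyasaponin replicate 1 gave 345. With the log2 size factor as covariate limma called 0 (1950 had an unadjusted p below 0.05, and without that covariate edgeR called 1365 and DESeq2 2078), and 0 of the 150 members were called, although all kept their sign, with median log2 differences of 0.44 over the higher and -0.38 over the lower members. Quantile normalization gave 189 higher and 753 lower transcripts.

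Prebiotic fish also stood apart in the sum of their normalized counts. The sum of all normalized counts of a fish was 10.5 ± 0.500 M in prebiotic and 9.23 ± 0.370 M in the 18 other fish (mean ± SD, n = 6 and 18). Each of the 6 prebiotic fish (9.94 to 11.3 M) lay above each of the others (8.47 to 9.82 M). This measure was added after its values were seen and holds the members themselves, so it is given with no test. Without the 150 members the sums were 9.62 ± 0.537 M and 8.73 ± 0.301 M, and ranges of 9.05 to 10.6 M and 8.20 to 9.24 M overlapped. The size factor was lower in prebiotic fish, 0.894 ± 0.105 against 1.06 ± 0.141, with overlapping ranges of 0.803 to 1.07 and 0.882 to 1.42. The sum of a fish is its reads divided by its size factor, so the higher sum and the lower size factor are not separate observations. The exact two-sided permutation p of 0.0170 for the size factor is not adjusted for the other library measures compared. By the same test p was 0.0941 for the share of transcripts at 0 and 0.0918 for the first principal component, also unadjusted. An adjusted p is left out because the measures included both sums, which were added after their values were seen. Nothing is therefore read from the unadjusted p of the size factor.

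The 75 higher members made up 28.5% of the difference in mean total between prebiotic and other fish, and the member at rank 29 alone made up 21.8%. That this share was positive was largely fixed by choosing members with prebiotic highest. The 100 most abundant transcripts, 5 of them higher members, made up 50.9%. Together the higher members held 7.76 ± 1.25% of all normalized counts in prebiotic fish (SD, n = 6). The share was 5.11 ± 1.81% in control fish, 4.77 ± 1.11% on soyasaponin and 4.98 ± 0.600% on the combined diet. The lower members held 0.239 ± 0.0269%, 0.364 ± 0.0497%, 0.353 ± 0.0298% and 0.359 ± 0.0181% in the same order. When reads were scaled to the library total instead, the median of all transcripts in prebiotic fish shifted by -0.16 on the log2 scale against the mean of the other diets, and limma called 100 transcripts higher and 2473 lower. On that scale the higher members had a median difference of 0.35 and the lower ones -0.64, and all 150 members kept their sign. The rule applied on that scale chose 48 of the higher and 40 of the lower members again.

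**Figure D4:**
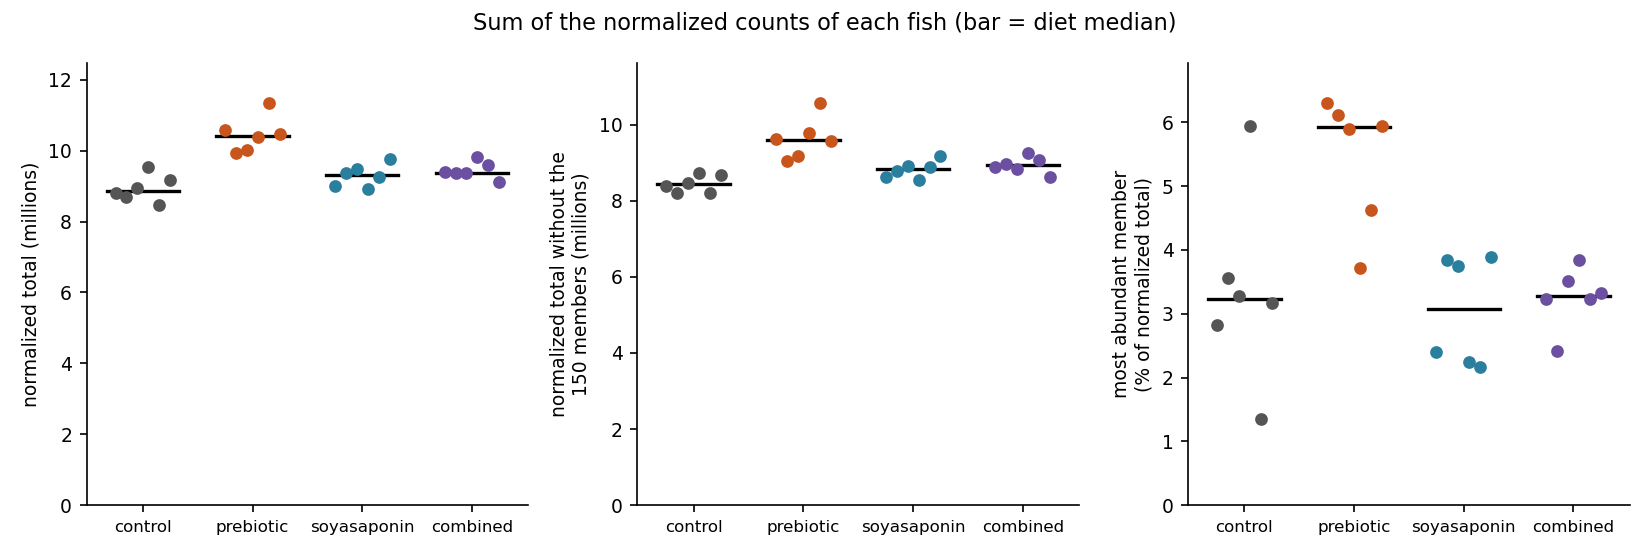
Sum of all normalized counts per fish in M (left), the same without the 150 members (middle) and the share of the total held by the most abundant member in % (right), each axis starting at 0, one point per fish and a bar at the diet median. Prebiotic fish (9.94 to 11.3 M) lie above all others (8.47 to 9.82 M) on the left, and the ranges overlap in the middle and on the right, where control replicate 4 stands at 5.94% and the lowest prebiotic fish at 3.72%.

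The members also tended to vary together among fish on the same diet, though within the 6 prebiotic fish the median over pairs of higher members was only 0.06. The rule did not use this relation directly. Its medians and pooled SD come from the same fish, however, so the choice of members may have shaped it. After the diet means were subtracted, pairs of higher members had a median correlation of 0.20 over the 24 fish and pairs of lower members 0.25, against -0.01 over all 77656953 pairs of the 12463 transcripts. A higher and a lower member had a median correlation of -0.19. In the 18 fish of the other diets alone, these medians were 0.23, 0.24 and -0.22. Within the 6 prebiotic fish they were 0.06, 0.33 and -0.07. Correlations over 6 fish spread widely, with quartiles of -0.40 and 0.53 for pairs of higher members and -0.45 and 0.44 for all pairs of transcripts. The lower median there is therefore not read as a difference from the other diets. Over those 18 fish, with diet means subtracted, the levels of both sets had a Pearson r of -0.85 (Spearman rho -0.68, and r = -0.72 without the 2 fish farthest from the median). The level of the higher set had an r of -0.60 with the size factor (rho -0.56, and -0.45 without the 2 farthest fish), of 0.51 with the normalized total without the members (rho 0.50, and 0.54) and of 0.11 with the first principal component of all transcripts (rho -0.05, and 0.15). For the lower set r was 0.41, -0.45 and -0.30 in the same order, rho was weaker at 0.22, -0.25 and -0.17, and r without the 2 farthest fish was 0.18, -0.54 and -0.33. These are 7 relations in all. All are descriptions with no p, since the points share the scaling of their library. They leave out the prebiotic fish, which were split on the first principal component. There prebiotic replicates 2, 4 and 5 lay at 81.8, 112.6 and 108.1, and replicates 1, 3 and 6 at -7.7, -55.0 and -48.2. The 18 other fish ran from -52.7 to 71.5.

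The rule keeps each step between neighbouring medians of the other 3 diets below the gap. Of the 150 members, limma called 0 between soyasaponin and control (background 0.276% higher, 0.709% lower and 0.985% in all). There 1 member and 2730 of the 17056 transcripts had an unadjusted p below 0.05. Between combined and soyasaponin limma called 0 (background 0%). In that contrast 1 member and 933 transcripts had an unadjusted p below 0.05, and over all transcripts edgeR called 0 and DESeq2 7. Between combined and control limma called 1 (background 1.87% higher, 1.37% lower and 3.24% in all). Here 3 higher and 8 lower members had an unadjusted p below 0.05, against 3514 of the 17056 transcripts. The rule favours small differences among these diets, so nothing is read from the counts of members. The single member called, named after its value was seen, was the lower member at rank 7. It stood at 392 in prebiotic, 536 in control fish, 633 on soyasaponin and 697 on the combined diet (medians), with a log2 difference of 0.42 between combined and control (SE 0.11, limma adjusted p = 0.04). On the combined diet it stood farther from the prebiotic fish than on the control diet.

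The combined diet holds the same prebiotic, and the rule does not set its place among the other 3. By medians, combined was the diet nearest to prebiotic in 42 of 75 higher members (56%), against 38.4% of all 2267 transcripts with prebiotic set apart as highest. By means it was nearest in 27 of 75 (36%, against 41.7%), with control nearest in 31, so this lean was found with medians and not with means. In the lower members combined was nearest in 15 of 75 (20%) both by medians and by means, against 28.8% and 28.6% of all 1174 transcripts with prebiotic set apart as lowest. It was the farthest in 36 by medians (48%, against 37%) and in 39 by means (52%, against 39.3%). These shares are given with no test. The combined median was above the soyasaponin median in 49 of 75 higher and in 49 of 75 lower members, and in 51% of all transcripts. By fitted means the count was 37 of 75 for the higher and 52 of 75 for the lower members, where 52.1% of all transcripts were above. The median log2 difference between combined and soyasaponin fish was 0.00 over the higher and 0.05 over the lower members in the fit, against 0.53 and -0.49 between prebiotic and combined fish. The rule selects a wide gap to prebiotic and smaller steps among the other diets, so nothing is read from the sizes of these differences.

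Prebiotic was the diet most often set apart, in 3441 of the 12463 transcripts (27.6%), followed by control in 3039 (24.4%), combined in 1611 (12.9%) and soyasaponin in 1134 (9.1%), while in 3238 (26%) the widest gap lay between pairs of diets. Of the 3441, prebiotic was highest in 2267 and lowest in 1174. These counts moved with single fish. Leaving out 1 prebiotic fish gave 1705 (without replicate 5) to 2724 (without replicate 3) with prebiotic highest. With prebiotic lowest it gave 1219 (without replicate 5) to 1396 (without replicate 3). Whether prebiotic stayed ahead of control in these omissions was not tested. In the top tercile of abundance it was highest in 18.8% and lowest in 7.70% of transcripts, and in the bottom tercile in 18.4% and 11.1%. The highest score was 3.22 with prebiotic highest and 2.75 with prebiotic lowest, against 3.16 and 3.28 for control. At rank 75 the score was 1.70 with prebiotic highest and 1.66 with prebiotic lowest, 1.73 and 1.73 for control, 1.42 and 1.33 for combined, and 0.96 and 1.15 for soyasaponin. A score of at least 2 was reached by 34 transcripts with prebiotic highest, 24 with prebiotic lowest, 22 and 34 for control, 7 and 2 for combined and 0 and 7 for soyasaponin. These sets were each chosen by their own score, so the numbers are given side by side with no test.

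**Figure D5:**
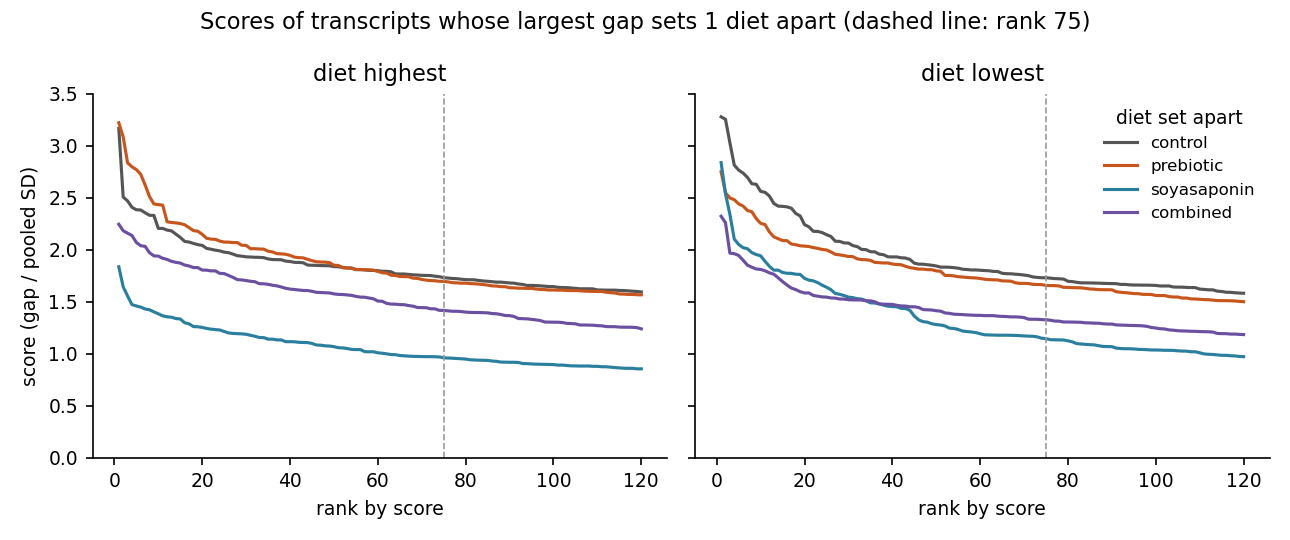
Score (gap divided by pooled SD within diets) against rank for the 120 best transcripts with each diet set apart, as the highest diet (left) and as the lowest (right); the dashed line marks rank 75. The curves for prebiotic (1.70 and 1.66 at rank 75) run near those for control (1.73 and 1.73) and above those for combined and soyasaponin fish.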

How the data were processed

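Hindgut RNA of 24 fish was sequenced, 6 per diet. The deposited table holds a signal, transcript counts divided by 1 size factor per library by the authors. The tools named in the submitters' processing notes, without role or order, are cutadapt, TopHat2, Subread, featureCounts and DESeq2; for genome build and annotation, none is given in the sources used here. All 498024 values were whole multiples (tolerance 1e-06) of the smallest nonzero value of their library, which was taken as 1 read.

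The rule was applied to log2(value + 1) for the 12463 transcripts with a mean of at least 50. limma 3.58.1 (R 4.3.3) with an intensity trend was fitted to all fish and the 17056 transcripts with a mean of at least 10, with two-sided tests. edgeR 4.0.16 and DESeq2 1.42.0 on recovered reads were alternatives, beside the pseudocount, filters, scaling, weights, covariates and omission of fish. Scaling to the library total was added after the data were seen. Library measures were compared by exact permutation. The members and lists were chosen with earlier results of these data known. Identifiers printed are the 2 highest scores in each direction; the most abundant member in each direction is also described, and members with the widest gap were added after their values were seen.

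On simulated counts for prebiotic against the mean of the other diets (17056 transcripts), limma recovered 28.0% of 100 transcripts changed 1.5-fold and 63.0% of 100 changed 2-fold, with 6 false calls. The counts were drawn independently for each transcript and fish, with no tank effect and no variation shared between transcripts. The false calls there therefore do not measure the error in the fish themselves. Fish were numbered within diets by record order, which pairs none of them. Figures were drawn with matplotlib 3.10.9.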

Additional observations from a re-analysis of the deposited data

Results flagged for a closer look

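In 60 groups of 6 fish, 3 had a highest or lowest fish separated from its nearest neighbour by more of the range than Dixon's 95% critical value for 6 samples, where chance gives about 3. Control replicate 4, when left out of the choice, had 60.0% of the higher transcripts on the prebiotic side, against 5.3 to 25.3% in the other control fish. Combined replicate 2 had the lowest level of the higher members in its diet, -0.18 on the log2 scale against -0.01 to 0.07 in the other combined fish. Combined replicate 5 held 199 normalized counts of the lower member at rank 17, where the other combined fish held 81.4 to 118.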

How the results depend on the processing

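No paired analysis was possible because the labels give no replicate numbers. Of the 75 higher and 75 lower members, the rule chose 47 and 43 again with diet means in place of medians, 48 and 40 with reads scaled to the library total, and 38 and 39 without prebiotic replicates 4 and 5. Quantile normalization kept 44 of the lower and 51 of the higher members, and removal of the first within-diet component kept 56 of the lower but 9 of the higher ones; the cause was not tested. Other pseudocounts, filters and TMM-scaled reads kept 62 to 75. Over single omissions the higher members chosen again numbered 23 to 68 and the lower ones 45 to 68. The left-out shares of prebiotic fish moved by less than their SD in every setting tried, but with reads scaled to the library total the median share of the higher set was 20.0% both in prebiotic fish and in the others.

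The 648 calls against the mean of the other diets became 188 with array quality weights, 2078 in DESeq2, 1365 in edgeR, 151 with the first principal component as covariate, 0 with the log2 size factor, 2573 scaled to the library total and 17 without prebiotic replicates 4 and 5. In the same order without edgeR, the 310 calls against control became 170, 1626, 13, 0, 2611 and 11, and the 38 against soyasaponin became 123, 858, 23, 0, 1163 and 13, with 86 at a mean of at least 50, 18 with no filter and 126 under quantile normalization. The 649 against combined became 1239 in DESeq2, 338 with the size factor, 1402 scaled to the total and 298 without the 2 fish.

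Between soyasaponin and control, 168 calls became 1054 with weights, 610 in DESeq2, 320 with the first component, 79 under quantile normalization, 253 scaled to the total and 276 without the 2 prebiotic fish. Between combined and control, 553 became 1708 with weights, 1247 in DESeq2, 218 with the size factor and 332 under quantile normalization. Combined against soyasaponin gave 0, and 7 in DESeq2. Over single omissions the counts ran from 95 to 1196 for the mean of the other diets, 0 to 1006 for control, 3 to 330 for soyasaponin, 266 to 781 for combined, 0 to 621 for soyasaponin against control, 19 to 820 for combined against control and 0 to 1 for combined against soyasaponin. Of the members described singly, the lower member with the widest gap lost its call in 11 of 36 settings, among them edgeR (adjusted p = 0.158), DESeq2 (adjusted p = 0.102) and, over single omissions, adjusted p of up to 0.125. The most abundant member of each direction lost it in 5, and the higher member with the widest gap and the top scores in 1 or 2. Their sign was fixed by the choice of members. These calls are from the contrast with the mean of the other diets, which the rule used. They therefore give no support to any member and do not rank members by reliability.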
